A study of Oncorhynchus mykiss with 6 samples.

Results

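The subject here is 52 gene entries annotated as transcription factors outside the bZIP and Rel families, in ribosome footprint data from rainbow trout liver under heat stress. The members were the entries of the authors' deposited table whose last cell names a transcription factor family. Families TF_bZIP, C_EBP and RHD and the symbol bhlhe40 were left out, which removed 44 entries. The table lists 1213 genes in the lines that could be read. The 52 members fall into 17 families, of which zf-C2H2 has 22, bHLH and Homeobox 4 each, ETS and ZBTB 3 each, and ESR-like, RXR-like, THR-like and MYB 2 each. The other 8 families have 1 member each. A symbol is given for 40 members and none for 12. In 3 further entries the last cell held overflowing text of another annotation, not a family, and they were not counted.

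Ribosome profiling sequences the short mRNA fragments that ribosomes protect from nuclease. The series holds 6 liver libraries in 2 groups of 3, from rainbow trout (Oncorhynchus mykiss), a salmonid of cold waters. The control group is labelled as kept at 18 °C in the sample labels and the design text and at 20 °C in the treatment protocol, and the heat stress group as kept at 24 °C for 8 h. No strain, age or genotype is given, both groups are liver, and the molecule is labelled nuclear RNA. The labels do not tie libraries to individual fish. The p-values therefore rest on library-to-library spread, and that spread may be technical.

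Transcription factors bind DNA and raise or lower transcription of nearby genes. Families are defined by the DNA-binding fold: zinc fingers of the C2H2 type include the Krueppel-like factors, bHLH proteins pair through a helix-loop-helix, ETS proteins carry a winged helix, and nuclear receptors carry a zinc-finger domain beside a ligand pocket. In liver, HNF4 receptors maintain hepatocyte gene expression, the glucocorticoid receptor carries the cortisol signal, and several factors follow the daily clock. The family column goes by domain, so it also holds proteins that are not classical transcription factors, such as ceramide synthases with a homeobox-like domain. A footprint level follows mRNA amount as well as translation, and RNA levels were not analysed here. In whole tissue, a smaller number of cells of a type and less RNA per cell cannot be told apart.

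The deposited table is a selection: all 1213 genes passed the authors' FDR of 0.05 and differ at least 2-fold in it, so membership in it already fixes that an entry differs. FPKM counts fragments per length of gene and depth of library, so levels of different genes can be set side by side. The ratio of count to FPKM gave library depth as a percentage of that of control replicate 1, which ranged from 65.5% to 100% in control and from 41.4% to 82.0% in heat stress. The listed genes held 362308 to 503370 footprints in control and 438701 to 863769 in heat stress. Of 15 hepatocyte marker names, 8 entries were listed, with a summed level of 29170 to 29960 FPKM in the control libraries and 11000 to 16930 FPKM in the heat stress libraries, 3 of them higher and 5 lower. The lists of erythrocyte, leukocyte, endothelial and pancreatic markers had 0 listed entries, that for biliary and stellate cells had 2 (summed level 116 to 128 FPKM in control and 165 to 198 FPKM in heat stress), and that for ovary and egg coat had 2 (6.60 to 8.67 FPKM and 0.97 to 2.29 FPKM). The part of cell composition in the results below was not tested.

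Most of the transcription factor entries had more footprints in heat-stressed liver. By the authors' deposited table, 39 of the 52 were higher and 13 lower, where 76.2% of all listed genes were higher. By limma-voom on the deposited counts, 31 of the 45 members with enough footprints were higher, 5 were lower and 9 did not pass an adjusted p of 0.05. The same test called 71.3% of all listed genes tested as higher and 16.2% as lower, 87.5% in all, so the members' 80.0% is near or below the background that the selection sets. The other 7 members had too few footprints for the test. A member that passed the filter only through the group where it is high had to differ, so these counts describe the members and support nothing. Among others, this holds through heat stress for mycb, RFX1, ETS2, CERS5, L3MBTL3, the BHLHA15 member entry and the 3 ZBTB entries. It also holds for the zf-C2H2 entries without a symbol numbered 1, 2, 3, 4, 5, 8 and 11, and through control for Klf11, tfcp2l1 and hnf4a. The groups did not overlap in FPKM in 50 of the 52, where 98.7% of all listed genes did not overlap. At an unadjusted p under 0.05, all 45 tested members passed. The selection of the table favours this, and the share of all listed genes that passed was not computed.

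**Figure D1:**
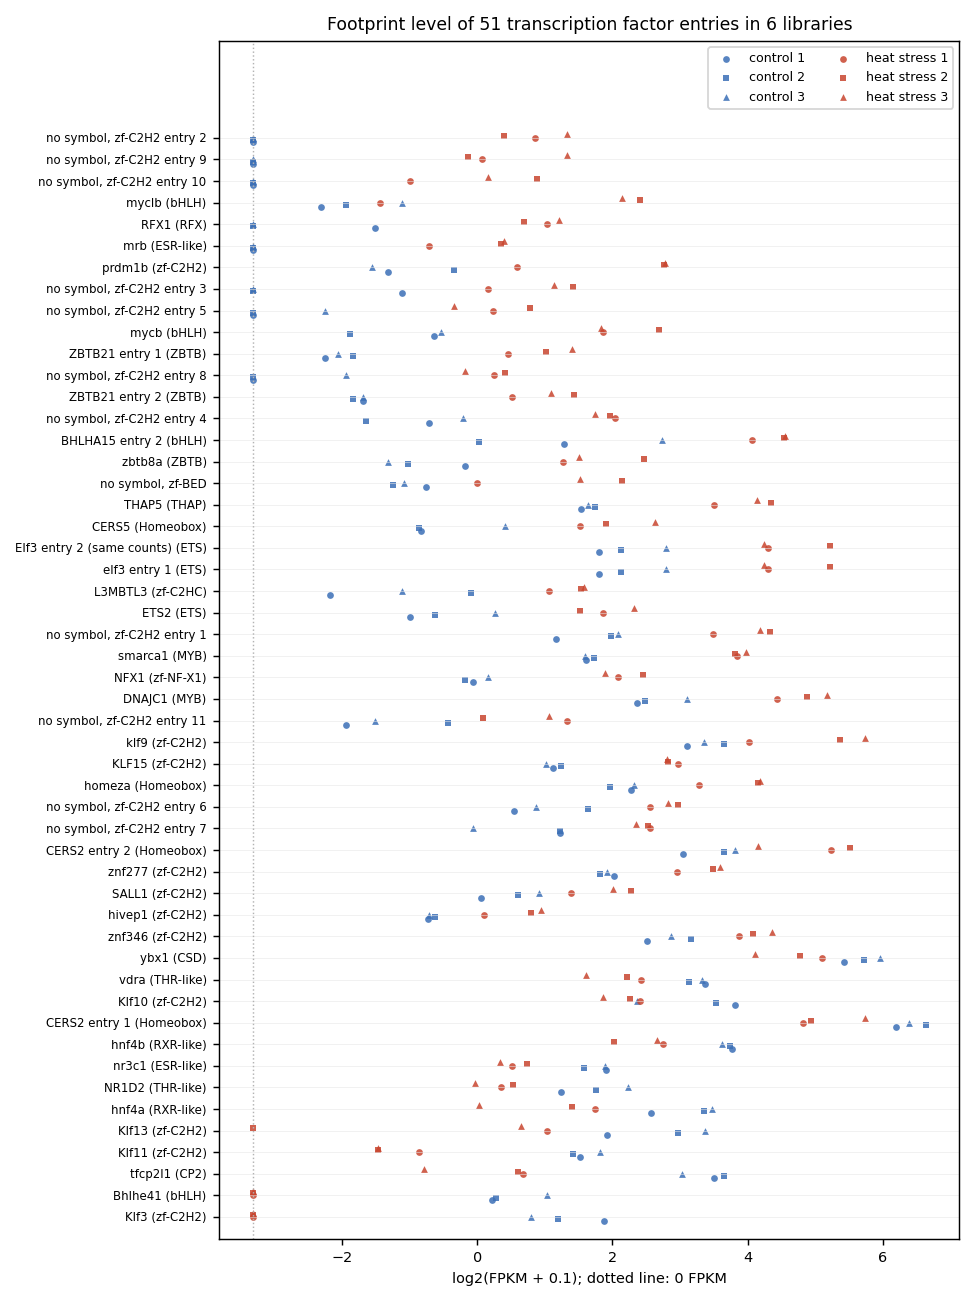
Footprint level of 51 of the 52 entries in each library, as log2(FPKM + 0.1), ordered by the ratio of group means. Blue marks are control and red marks heat stress, with 1 shape per replicate number. The groups are apart in all entries but myclb and Klf10, and the dotted line marks 0 FPKM.

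How many members passed, and how the calls split into higher and lower, depended on the library depth recovered from counts and FPKM. With TMM factors over the listed genes, which assume that most genes in the table did not change, 1 member was higher and 11 were lower, 8.33% of calls higher in place of 86.1%. TMM called 7.64% of all listed genes higher and 23.1% lower, and so did median-of-ratios factors, with the same 1 and 11 members. Scaling to the summed listed footprints called 9 members higher and 9 lower, where it called 18.0% and 22.7% of all listed genes. Under TMM the median log2 fold change of all listed genes shifted by -1.55, from 1.66 to 0.11, and that of the members went from 2.26 to 0.70. The members therefore stood 0.60 above the listed genes on the log2 scale by recovered depth and 0.59 above them under TMM. This difference was 0.00 under a stricter minimum of 30 depth-scaled footprints and -0.05 with log2(FPKM + 1). The estimate was below 0 under TMM for CERS2 entry 2, znf277, hivep1, SALL1 and znf346, none past the test. The 6 members called under both scalings were tfcp2l1, CERS2 entry 1, hnf4a, Klf11 and hnf4b, all lower, and the zf-C2H2 entry without a symbol numbered 2, which was higher. TMM lowered the estimate of every tested member, so a lower call under it adds no support to a lower call by recovered depth. Of the 36 calls, 14 held with each library left out in turn. The filter was the same in these fits, so calls that it favoured stayed favoured. Without control replicate 1 there were 17 calls and without heat stress replicate 3 there were 22. For fits that leave out a library, the share of all listed genes called was not computed, so these counts only describe the members.

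**Figure D2:**
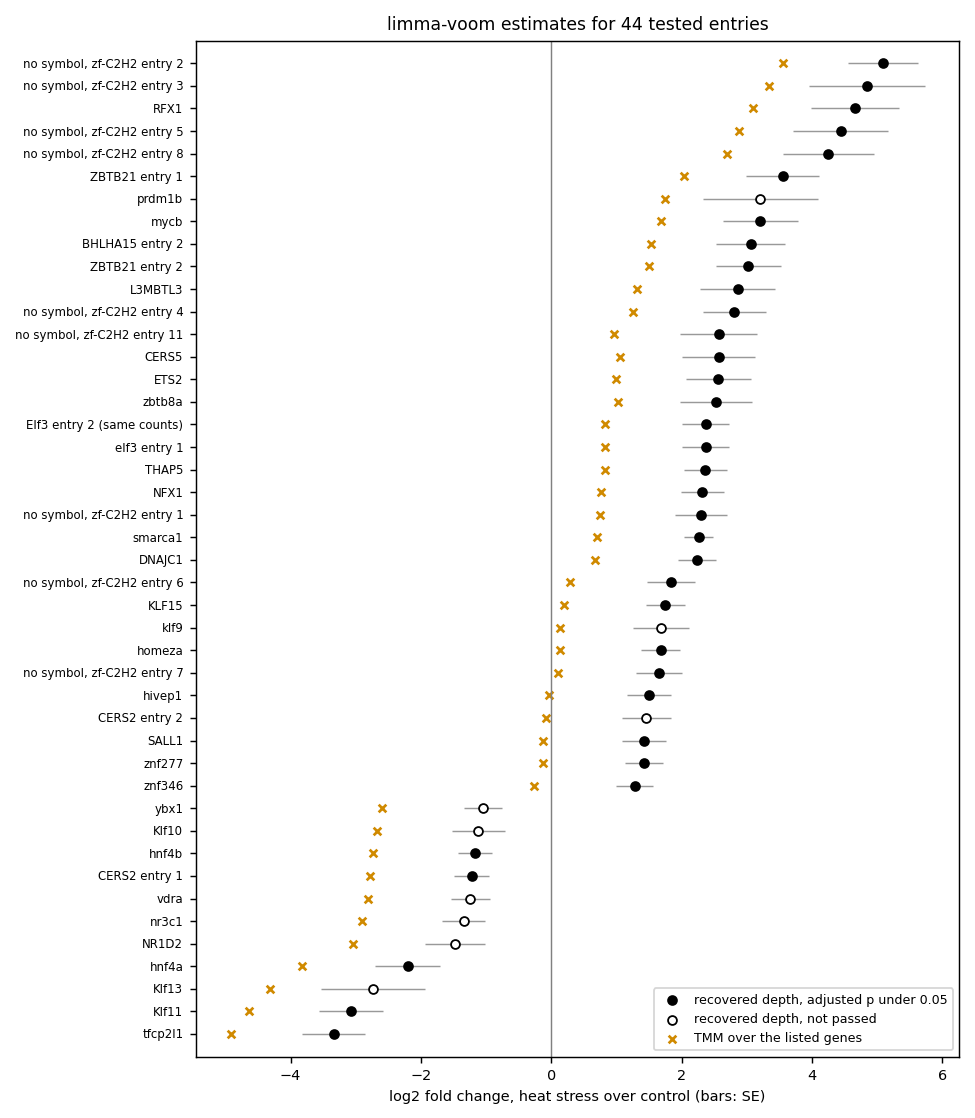
log2 fold change of heat stress over control for 44 of the 45 tested entries, with SE, by limma-voom with recovered depth (circles, filled where the adjusted p was under 0.05) and with TMM over the listed genes (crosses). Crosses lie to the left of the circles in every entry shown, and 5 entries with circles above 0 have crosses below 0.

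The members were scarce. The median of their group means was 1.91 FPKM for control and 3.73 FPKM for heat stress, where the medians of all listed genes were 4.88 and 12.4 FPKM. In control 7 of 52 reached 10 FPKM, against 395 of 1213 listed genes, and in heat stress 14 against 675. The 44 transcription factor entries left out had medians of 4.53 and 12.5 FPKM, with 33 higher and 7 lower of 43 tested. All members together took 0.461% to 0.503% of the listed footprints in the control libraries and 0.383% to 0.465% in the heat stress libraries, and these ranges overlap.

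Of the 6 nuclear receptor entries, 5 were lower in heat stress by the authors' deposited table, and the test called 2 of them, both HNF4 genes. Among all listed genes 76.2% were higher in that table, and 16.2% of those tested were called lower. Hnf4a encodes the receptor that holds much of the hepatocyte gene program in place. It was at 5.86, 10.1 and 11.0 FPKM in control replicates 1, 2 and 3 and at 3.25, 2.55 and 0.920 FPKM in heat stress replicates 1, 2 and 3. Every control library lay above every heat stress library, and the means were 8.97 ± 2.73 and 2.24 ± 1.20 FPKM (SD, n = 3 per group). The log2 fold change was -2.20 ± 0.50 (SE, limma-voom adjusted p = 0.0356). Hnf4a had 23, 10 and 7 footprints in heat stress and fell short of the minimum in replicate 3. It met the filter through the control libraries alone, so its call was favoured by the filter and supports nothing. Hnf4b, a related receptor gene known from fish and frogs, was steadier among replicates. Its control libraries held 13.5, 13.3 and 12.2 FPKM and its heat stress libraries 6.65, 3.98 and 6.23 FPKM. The log2 fold change was -1.17 ± 0.26 (limma-voom adjusted p = 0.0317). Both HNF4 genes were also called lower under TMM (adjusted p = 0.00269 and 0.000486 by limma-voom). TMM lowers every estimate, so this adds no support to a lower call. The hnf4a call did not survive the removal of replicate 2 or 3 of either group (limma-voom adjusted p up to 0.248). That of hnf4b held without heat stress replicate 1 alone, with adjusted p up to 0.125 by limma-voom without the others in turn.

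Nr3c1 and mrb, the corticosteroid receptor entries, had opposite directions. Nr3c1, the glucocorticoid receptor gene, was at 3.66, 2.88 and 3.59 FPKM in control and at 1.33, 1.57 and 1.16 FPKM in heat stress. The groups did not overlap, yet the estimate of -1.34 ± 0.33 on the log2 scale missed the threshold (limma-voom adjusted p = 0.0523). It passed under TMM, which lowers every estimate (limma-voom adjusted p = 0.000752). Mrb, whose description begins as mineralocorticoid receptor, had 0 footprints in every control library and 8, 11 and 22 footprints in heat stress, or 0.510, 1.18 and 1.21 FPKM. Taking 3 footprints as the floor for the whole control group, mrb was at least 16.9-fold higher, a bound that covers counting error only. It had too few footprints for the test. In heat stress the FPKM of nr3c1 and mrb overlapped, whereas in control footprints were counted for nr3c1 alone. Among their partners, the co-chaperone genes of the steroid receptors were listed: FKBP5 went from 48.4 ± 2.44 to 109 ± 17.9 FPKM (SD, n = 3), and 2 FKBP4 entries from 17.4 ± 4.27 to 363 ± 58.9 FPKM and from 25.9 ± 9.01 to 203 ± 23.5 FPKM. All of these co-chaperone entries were called higher (limma-voom adjusted p = 0.00961, 5.24e-06 and 0.000133), where 71.3% of all listed genes tested were. FKBP5 had log2 fold changes of 1.16 by recovered depth and -0.40 under TMM.

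Vdra, a vitamin D receptor gene, and NR1D2, the gene of the clock repressor REV-ERB-beta, completed the receptors. Vdra was at 10.2, 8.65 and 9.88 FPKM in control and at 5.28, 4.55 and 2.95 FPKM in heat stress. NR1D2 was at 2.26, 3.29 and 4.59 FPKM in control and at 1.17, 1.34 and 0.880 FPKM in heat stress. Neither gene had overlapping groups and neither passed, with log2 fold changes of -1.24 ± 0.30 (limma-voom adjusted p = 0.0565) and -1.48 ± 0.46 (limma-voom adjusted p = 0.217). Under TMM, which lowers every estimate, both passed (limma-voom adjusted p = 0.000901 and 0.00422). In control the receptors ranked as hnf4b, vdra, hnf4a, nr3c1 with NR1D2, and mrb. Vdra and hnf4a did not differ beyond their spread, nor did nr3c1 and NR1D2, both with a mean of 3.38 FPKM.

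**Figure D3:**
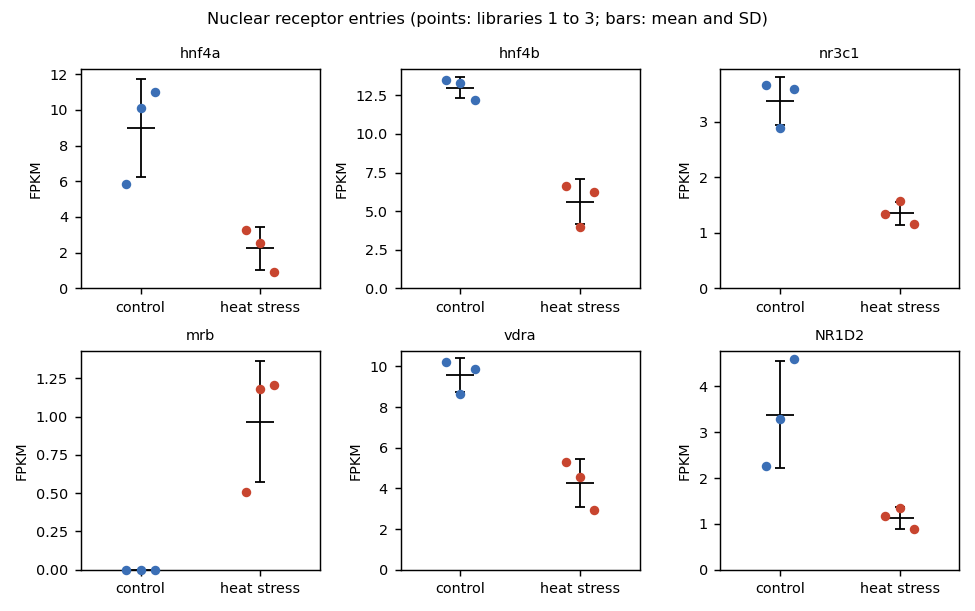
FPKM of the 6 nuclear receptor entries in each library (points), with mean and SD (bars), on linear axes that start at 0. Hnf4a, hnf4b, nr3c1, vdra and NR1D2 are lower in every heat stress library than in any control library, and mrb is at 0 in the control libraries only.

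The 6 Krueppel-like factor entries split by direction, 2 higher and 4 lower in the authors' deposited table, with 1 called higher, 1 called lower, 3 not passed and 1 not tested. Among all listed genes 76.2% were higher in that table, and 71.3% of those tested were called higher and 16.2% lower. KLF15, which in mouse liver promotes amino acid breakdown and glucose production, was at 2.07, 2.25 and 1.93 FPKM in control and at 7.72, 6.94 and 6.93 FPKM in heat stress. Its replicates were the tightest of the 6 relative to their means in heat stress, and it rose by 1.75 ± 0.30 on the log2 scale (limma-voom adjusted p = 0.00836). Removing control replicate 1 ended the call (limma-voom adjusted p = 0.0533), and under TMM the estimate was 0.19. Klf9, which cortisol and thyroid hormone induce in other vertebrates, was at 8.50, 12.4 and 10.1 FPKM in control and at 16.2, 41.1 and 53.5 FPKM in heat stress. Heat stress replicate 1 lay close to the control libraries and the other two far above them. The log2 fold change of 1.69 ± 0.43 did not pass (limma-voom adjusted p = 0.0712), but did without heat stress replicate 1.

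Klf11 and Klf10 encode repressors that respond early to TGF-beta in mammals. Klf11 was at 2.78, 2.57 and 3.42 FPKM in control and at 0.450, 0.260 and 0.260 FPKM in heat stress, which is 75 footprints against 6. It fell by 3.07 ± 0.49 on the log2 scale (limma-voom adjusted p = 0.00561), a call lost without heat stress replicate 3 (limma-voom adjusted p = 0.072). Klf11 met the minimum of footprints through the control libraries alone, so its call was favoured by the filter and supports nothing. Klf10 was at 14, 11.5 and 5.02 FPKM in control and at 5.23, 4.67 and 3.54 FPKM in heat stress. Control replicate 3 fell below heat stress replicate 1, so the groups overlapped, and Klf10 did not pass (log2 fold change -1.12 ± 0.41, limma-voom adjusted p = 0.535). Without control replicate 3 it passed. Klf3, a repressor that recruits the corepressor CtBP, had 26, 12 and 8 footprints in control and 0 in every heat stress library. With 3 footprints taken as the floor of the heat stress group, Klf3 was at least 12.4-fold lower, and it was not tested. Klf13 was at 3.67, 7.74 and 10.2 FPKM in control and at 1.95, 0 and 1.46 FPKM in heat stress, and did not pass (log2 fold change -2.74 ± 0.80, limma-voom adjusted p = 0.152). Under TMM, which lowers every estimate, Klf11, Klf13 and Klf10 were all called lower.

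**Figure D4:**
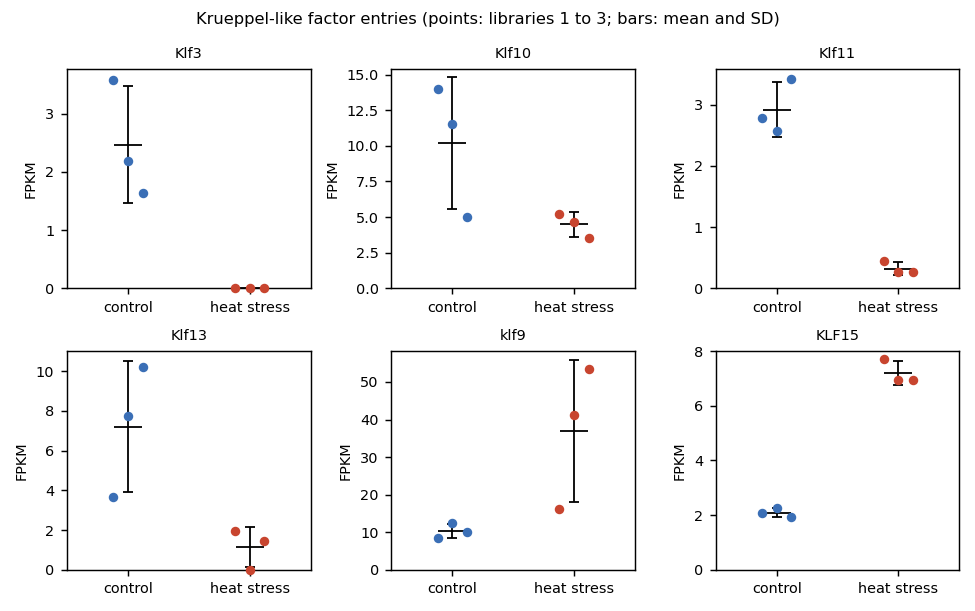
FPKM of the 6 Krueppel-like factor entries in each library (points), with mean and SD (bars), on linear axes that start at 0. Klf3, Klf10, Klf11 and Klf13 have lower means in heat stress, Klf3 with 0 FPKM in each heat stress library, and klf9 and KLF15 have higher means.

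The 5 other zf-C2H2 entries with a symbol were all higher in the authors' deposited table, and 4 were called higher. Among all listed genes 76.2% were higher in it, and 71.3% of those tested were called higher. Prdm1b, a gene for a Blimp-1 type repressor that directs terminal differentiation of plasma cells in mammals, was at 0.3, 0.690 and 0.240 FPKM in control and at 1.40, 6.68 and 6.75 FPKM in heat stress. Heat stress replicate 1 again lay nearest to control, and the log2 fold change of 3.21 ± 0.88 did not pass (limma-voom adjusted p = 0.103). It passed without heat stress replicate 1. Znf346, which encodes a protein that binds double-stranded RNA, was at 5.59, 8.87 and 7.18 FPKM in control and at 14.5, 16.8 and 20.5 FPKM in heat stress. Znf277 was at 3.97, 3.42 and 3.67 FPKM in control and at 7.68, 11.1 and 11.9 FPKM in heat stress. Both rose by recovered depth, by 1.28 ± 0.28 and 1.42 ± 0.29 on the log2 scale (limma-voom adjusted p = 0.0299 and 0.0212).

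Hivep1 encodes a large zinc finger protein that binds kappa-B-like sites, and SALL1 a developmental repressor known from kidney. Hivep1 was at 0.5, 0.550 and 0.510 FPKM in control and at 0.970, 1.63 and 1.83 FPKM in heat stress. SALL1 was at 0.940, 1.42 and 1.79 FPKM in control and at 2.51, 4.76 and 3.93 FPKM in heat stress. They rose by 1.5 ± 0.34 and 1.42 ± 0.34 on the log2 scale (limma-voom adjusted p = 0.0365 and 0.0496). Under TMM the estimates of all 4 called genes were below 0, from -0.27 for znf346 to -0.03 for hivep1. Each of the 4 calls held in 1 of the 6 fits that leave out a library, that without heat stress replicate 1, and limma-voom adjusted p rose to 0.374 in the others.

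All 11 zf-C2H2 entries without a symbol were higher in heat stress. They are numbered here in the order of the authors' p-value. Of them 9 were tested and all 9 were called higher, with a median log2 fold change of 2.81, and 2 had too few footprints. Among all listed genes 71.3% of those tested were called higher, with a median of 1.66, and 76.2% were higher in the authors' deposited table. Of the tested entries, those numbered 1, 2, 3, 4, 5, 8 and 11 met the filter only through heat stress, so this count is a description. Under TMM only entry 2 was called, and the estimates of entries 6 and 7 were 0.28 and 0.10. Descriptions cut to 8 characters begin as zinc finger in 8 of them and as gastrula in 2. A shared KEGG orthology identifier was given to 6, which no other listed gene carried, and whether they share footprints was not tested.

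Entry 1 was the most abundant of the 11, at 2.15, 3.84 and 4.15 FPKM in control and at 11.1, 20.1 and 18.1 FPKM in heat stress. It rose by 2.30 ± 0.40 on the log2 scale (limma-voom adjusted p = 0.00864). Entry 1 had 13, 18 and 17 footprints in control, and replicate 1 fell just short of the minimum once scaled to depth. Its call was therefore favoured by the filter and supports nothing. Without control replicate 1 the estimate was 1.93 and missed the threshold (limma-voom adjusted p = 0.0627). Entry 2 had no footprint in control and 14, 6 and 22 footprints in heat stress, or 1.70, 1.22 and 2.42 FPKM. It was at least 17.3-fold higher against 3 footprints over the control group. It met the minimum of footprints through the heat stress libraries alone, so its calls, the one under TMM included, were favoured by the filter and support nothing. Entry 4 was at 0.510, 0.220 and 0.760 FPKM in control and at 3.99, 3.81 and 3.26 FPKM in heat stress, a rise of 2.81 ± 0.48 on the log2 scale (limma-voom adjusted p = 0.00821). The call of entry 4 held with each library left out. Like entry 2, entry 4 met the minimum of footprints through the heat stress libraries alone, so this supports nothing.

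Entries 9 and 10 also had no footprint in control. They had 26 and 20 footprints over the heat stress group, which put them at least 10.7-fold and at least 8.25-fold higher. Entries 5 and 8 each had 2 footprints in control, all in replicate 3. Their ratios of depth-scaled footprints were 28.5 (95% interval 7.44 to 242) and 24.1 (6.25 to 206), exact intervals that cover counting error only. Both calls ended when control replicate 1 was removed (limma-voom adjusted p = 0.0516 and 0.0504). Entry 3 had 11 footprints in control replicate 1, none in the other two control libraries and 22, 32 and 51 in heat stress. Removing control replicate 2 or 3 or the third heat stress library ended its call, with limma-voom adjusted p up to 0.0702. Entries 6, 7 and 11 had log2 fold changes of 1.84 ± 0.37, 1.65 ± 0.35 and 2.57 ± 0.59, and each call held in 2 of the 6 fits that leave out a library (limma-voom adjusted p up to 0.246).

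Of the 4 bHLH members 2 were called higher and 2 were not tested, where 71.3% of all listed genes tested were called higher. BHLHA15 encodes Mist1, which builds the secretory apparatus of gland cells and is a target of XBP1 in mouse. The member entry was at 2.34, 0.920 and 6.55 FPKM in control and at 16.7, 23.1 and 23.5 FPKM in heat stress. It rose by 3.06 ± 0.53 on the log2 scale (limma-voom adjusted p = 0.00821). With control replicate 1 removed the estimate was 3.02 and missed the threshold (limma-voom adjusted p = 0.06). Another entry with the same symbol carries no family in the table and so is no member. It went from 0.537 ± 0.479 to 10.8 ± 3.92 FPKM (SD, n = 3), with a log2 fold change of 4.20 ± 0.70 (limma-voom adjusted p = 0.0068). Neither BHLHA15 entry met the minimum of footprints through its control libraries, so both calls were favoured by the filter and support nothing.

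Mycb encodes c-Myc, a factor of growth and ribosome production. It was at 0.540, 0.170 and 0.590 FPKM in control and at 3.53, 6.38 and 3.44 FPKM in heat stress. The rise of 3.21 ± 0.57 on the log2 scale (limma-voom adjusted p = 0.00943) held with each library left out. Mycb met the minimum of footprints through the heat stress libraries alone, so its call was favoured by the filter and supports nothing. Myclb, an L-Myc gene, had 1, 1 and 2 footprints in control and 2, 22 and 36 in heat stress. Its FPKM of 0.270 in heat stress replicate 1 lay within the control range of 0.1 to 0.360, so the groups overlapped. Bhlhe41 encodes the clock repressor DEC2. It had 10, 8 and 12 footprints in control and none in heat stress, at least 8.08-fold lower against 3 footprints over the heat stress group. The 3 entries of its relative bhlhe40, left out by the rule, were also lower, with log2 fold changes of -2.56, -2.50 and -1.89.

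All 3 ETS entries were called higher, where 71.3% of all listed genes tested were. Elf3 encodes an ETS factor of epithelial cells that responds to inflammatory signals in mammals. Its 2 entries had identical counts in all 6 libraries and count as 1 measurement, which leaves 51 distinct ones among the members. Elf3 was at 3.40, 4.25 and 6.84 FPKM in control and at 19.6, 37.0 and 18.9 FPKM in heat stress, and rose by 2.37 ± 0.36 on the log2 scale (limma-voom adjusted p = 0.0044). The call held with each library left out, but under TMM the estimate was 0.83 and did not pass. ETS2, a target of RAS and MAPK signalling, was at 0.400, 0.550 and 1.10 FPKM in control and at 3.52, 2.78 and 4.90 FPKM in heat stress. It rose by 2.56 ± 0.50 (limma-voom adjusted p = 0.016). ETS2 met the minimum of footprints through the heat stress libraries alone, so its call was favoured by the filter and supports nothing. When control replicate 1 or 2 or the third heat stress library was removed, the estimates of 2.23, 2.46 and 2.31 missed the threshold, with limma-voom adjusted p up to 0.1.

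Tfcp2l1, of the CP2 family, is known from the epithelium of kidney ducts in mammals. It was at 11.2, 12.4 and 8.08 FPKM in control and at 1.5, 1.42 and 0.480 FPKM in heat stress, so every heat stress library lay far below every control library. Its fall of 3.34 ± 0.48 on the log2 scale (limma-voom adjusted p = 0.00311) was the steepest among the tested members, and the call held with each library left out. Tfcp2l1 had 11, 6 and 4 footprints in heat stress and met the minimum of footprints through the control libraries alone. Its call was therefore favoured by the filter and supports nothing. Under TMM, which lowers every estimate, tfcp2l1 was also called lower (limma-voom adjusted p = 0.00052).

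**Figure D5:**
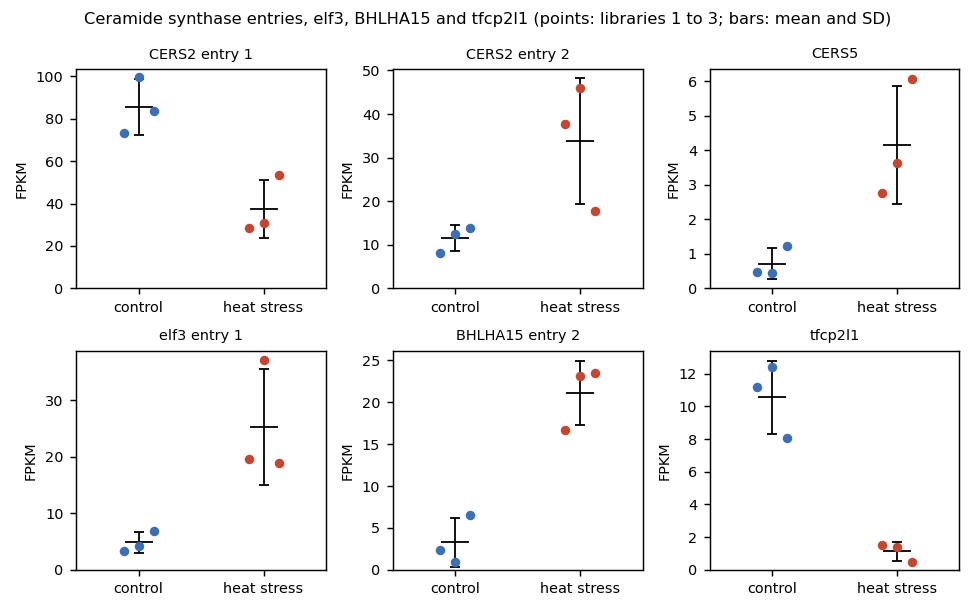
FPKM of the 3 ceramide synthase entries and of elf3, BHLHA15 and tfcp2l1 in each library (points), with mean and SD (bars), on linear axes that start at 0. CERS2 entry 1 and tfcp2l1 are lower in every heat stress library than in any control library, and the other 4 entries are higher, although under TMM the log2 estimate of CERS2 entry 2 was -0.08.

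The Homeobox members include 3 ceramide synthase entries and homeza. Ceramide synthases join a sphingoid base to a fatty acid, and the CERS2 enzyme makes the very long chain ceramides that are abundant in liver. CERS2 entry 1, the most abundant member in control and within the spread of klf9 and CERS2 entry 2 in heat stress, was at 73.3, 99.5 and 83.5 FPKM in control and at 28.3, 30.6 and 53.4 FPKM in heat stress. It fell by 1.22 ± 0.27 on the log2 scale (limma-voom adjusted p = 0.0296). CERS2 entry 2 went the other way, from 8.15, 12.4 and 13.9 FPKM to 37.7, 45.9 and 17.8 FPKM. Its log2 fold change of 1.46 ± 0.37 did not pass (limma-voom adjusted p = 0.063) and was -0.08 under TMM. The share of entry 2 in the FPKM of both entries does not depend on library scaling. It was 10%, 11.1% and 14.3% in control and 57.1%, 60.0% and 25.0% in heat stress, and the summed level was 81.5 to 112 FPKM and 66.0 to 76.5 FPKM. How footprints were assigned between the 2 entries is not given, and whether they share footprints was not tested. The share and the opposite directions both depend on that assignment. Heat stress replicate 3 was the library nearest to control in both entries. Without it the call of entry 1 held and entry 2 passed, and without any other library the call of entry 1 was lost (limma-voom adjusted p up to 0.138).

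CERS5, another ceramide synthase gene, was at 0.460, 0.450 and 1.23 FPKM in control and at 2.77, 3.63 and 6.06 FPKM in heat stress. It rose by 2.57 ± 0.56 (limma-voom adjusted p = 0.0282), a call kept when control replicate 3 or the first heat stress library was removed, and in no other case (limma-voom adjusted p up to 0.166). CERS5 met the minimum of footprints through the heat stress libraries alone, so its call was favoured by the filter and supports nothing. Homeza, a homeobox and leucine zipper gene, was at 4.74, 3.80 and 4.88 FPKM in control and at 9.63, 17.8 and 18.0 FPKM in heat stress. It rose by 1.68 ± 0.30 (limma-voom adjusted p = 0.0101), but under TMM the estimate was 0.14 and did not pass. The estimates of 1.74 and 1.57 with control replicate 1 or 2 removed missed the threshold (limma-voom adjusted p up to 0.0565).

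The MYB family holds smarca1, an ATPase gene of ISWI chromatin remodellers, and DNAJC1, a J protein gene of the endoplasmic reticulum membrane, both with a SANT domain related to that of Myb. Smarca1 had the smallest adjusted p of the members. It was at 2.94, 3.20 and 2.93 FPKM in control and at 14.2, 14 and 15.7 FPKM in heat stress, and rose by 2.26 ± 0.22 on the log2 scale (limma-voom adjusted p = 0.000263). DNAJC1 was at 5.05, 5.47 and 8.49 FPKM in control and at 21.6, 29.3 and 36.0 FPKM in heat stress, and rose by 2.23 ± 0.29 (limma-voom adjusted p = 0.00155). Both calls held with each library left out. Under TMM the estimates were 0.70 and 0.67 and did not pass.

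The 3 ZBTB entries, BTB-domain zinc finger genes, were all called higher, where 71.3% of all listed genes tested were. ZBTB21, a repressor gene with 2 entries, was at 0.110, 0.180 and 0.140 FPKM in control and at 1.27, 1.93 and 2.53 FPKM in heat stress in entry 1. Entry 2 was at 0.210, 0.180 and 0.210 FPKM in control and at 1.32, 2.59 and 2.03 FPKM in heat stress. They rose by 3.55 ± 0.56 and 3.02 ± 0.50 on the log2 scale (limma-voom adjusted p = 0.00521 and 0.0067), and both calls held with each library left out. The counts behind the control levels were 2 to 5 footprints per library. All 3 ZBTB entries met the minimum of footprints through the heat stress libraries alone, so their calls were favoured by the filter and support nothing. Zbtb8a was at 0.780, 0.390 and 0.3 FPKM in control and at 2.31, 5.45 and 2.75 FPKM in heat stress (log2 fold change 2.53 ± 0.55, limma-voom adjusted p = 0.0281). Its call held without heat stress replicate 1 and was lost without each other library (limma-voom adjusted p up to 0.104).

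RFX1 and NFX1 encode proteins that bind the X box of MHC class II promoters. RFX1 had 4, 0 and 0 footprints in control and 24, 10 and 30 in heat stress, or 0.250, 0 and 0 FPKM against 1.95, 1.51 and 2.20 FPKM. It rose by 4.66 ± 0.67 on the log2 scale (limma-voom adjusted p = 0.00293). NFX1 was at 0.860, 0.780 and 1.01 FPKM in control and at 4.12, 5.40 and 3.61 FPKM in heat stress, a rise of 2.32 ± 0.33 (limma-voom adjusted p = 0.00281). THAP5, a gene of the THAP zinc finger family, was at 2.81, 3.26 and 3.01 FPKM in control and at 11.2, 20.3 and 17.6 FPKM in heat stress, a rise of 2.36 ± 0.33 (limma-voom adjusted p = 0.00242). These 3 calls held with each library left out, and none passed under TMM. RFX1 met the minimum of footprints through the heat stress libraries alone, so its call was favoured by the filter and supports nothing.

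L3MBTL3, a reader of methylated lysines in chromatin, was at 0.120, 0.840 and 0.360 FPKM in control and at 1.99, 2.79 and 2.90 FPKM in heat stress. It rose by 2.86 ± 0.58 on the log2 scale (limma-voom adjusted p = 0.0193), but kept the call only when control replicate 2 or the first heat stress library was the one removed (limma-voom adjusted p up to 0.101). L3MBTL3 did not meet the minimum of footprints through its control libraries, so its call was favoured by the filter and supports nothing. The zf-BED entry without a symbol was at 0.490, 0.320 and 0.370 FPKM in control and at 0.9, 4.32 and 2.78 FPKM in heat stress, and was not tested. Ybx1, the cold-shock domain gene of a protein that packages mRNA and restrains its translation, had 825 footprints in control and 335 in heat stress. It was at 43.1, 52.6 and 62.1 FPKM in control and at 34.1, 27.2 and 17.1 FPKM in heat stress. The groups did not overlap, but the log2 fold change of -1.05 ± 0.29 did not pass (limma-voom adjusted p = 0.109). It passed under TMM, which lowers every estimate (limma-voom adjusted p = 0.00165).

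Heat stress replicate 1 was often the library nearest to control. Of the 39 members that were higher in heat stress, 22 (56.4%) had their lowest heat stress level in it, 6 in replicate 2 and 11 in replicate 3. Among all 924 listed genes that were higher, 66.1% had their lowest level there. Of the 13 members that were lower, 10 (76.9%) were counted with their highest heat stress level in replicate 1. These include Klf3 and Bhlhe41, which were at 0 FPKM in every heat stress library and so have no highest one. Such ties were counted for replicate 1, also in the 44.6% found for all 289 listed genes that were lower. The gap from replicate 1 to the other two was wide in myclb, prdm1b and klf9, with 0.270 against 5.23 and 4.33 FPKM, 1.40 against 6.68 and 6.75 FPKM, and 16.2 against 41.1 and 53.5 FPKM.

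Of 91 names of transcription co-regulators, 9 entries with 8 symbols were listed, of which 5 were called higher, 1 did not pass and 3 were not tested. Among all listed genes tested, 71.3% were called higher, so this count sets the co-regulators apart in no way. Beside the FKBP entries, egln1, the oxygen sensor that marks HIF for destruction, went from 7.19 ± 0.546 to 17.2 ± 4.24 FPKM (SD, n = 3), and brd2a, a reader of acetylated histones, from 2.28 ± 0.497 to 5.55 ± 0.596 FPKM. Both were below 0 on the log2 scale under TMM, at -0.32 and -0.20. Egln1 kept its call in 1 and brd2a in 3 of the 6 fits that leave out a library (limma-voom adjusted p up to 0.171). NAB2, the corepressor of EGR factors, had 4 footprints in control and 34 in heat stress, the clock gene Ciart 7 and 48, and the stress gene ier3 none and 45. The clock gene per1b, at 2.09 ± 0.516 and 0.850 ± 0.145 FPKM (SD, n = 3), did not pass (limma-voom adjusted p = 0.139). Of 65 names of stress, liver, lipid and clock factors, 54 had no listed entry, among them hsf1, hsf2, hif1a, srebf1, srebf2, egr1, foxa1, foxa2, foxa3 and ppara. These factors were not analysed here, and lines that could not be read were not searched for them.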

How the data were processed

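Liver footprints were cleaned on columns and turned into small RNA libraries, per the labels' protocols. The submitters' processing notes list Bowtie2 and edgeR without saying what each did. Genome build, annotation and counting: not given in the sources used here. The deposited file gives each cell a fixed width of 8 characters and was read by position. In 411 lines the count cells did not hold whole numbers, and these lines were not used. Per the file headers it holds footprint counts and FPKM per library with mean FPKM, p-value, FDR and log2 fold change for each gene. Cut identifiers do not tell genes apart, so no coordinates or sequences are given, and the planned promoter motifs were not computed. Of the 40 members with a symbol, 23 had one that matched a trout gene in RefSeq (USDA_OmykA_1.1), with repeated symbols counted per entry.

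Relative depth was the median ratio of count to FPKM over 94 genes with 200 footprints or more and 10 FPKM or more (SD up to 1.2%). These depths were the library sizes for limma-voom (limma 3.58.1, R 4.3.3). A gene needed 10 footprints, scaled to the median library depth, in each of 3 libraries and a total of 15 unscaled, which 1152 met and 61 did not. The Benjamini-Hochberg adjustment ran over about 29300 genes, the number the authors' FDR implies. The test was tried on simulated counts. The values of 1 member, which the counts include, are not reported here. Count and FPKM cells touch in the file, so their unit was recorded as unspecified. Members and lists were chosen with earlier results of these data known. Any member with a symbol could be named. Values per library were due for the 3 smallest p-values of each family of 3 or more, for tested members of smaller families and for fixed roles. Those of other members, such as Klf3, prdm1b, znf277, hivep1, SALL1, znf346, CERS2 entry 2 and the further entries without a symbol, were chosen after their values were seen. Replicates of a group differed by more than sampling noise (chi-square over its degrees of freedom 14.7 to 33.2). Alternatives were 3 scalings, 2 filters, log2 FPKM with pseudocounts of 1 and 0.1, adjustment over listed genes, a replicate block and each library left out. Tables and figures used Python 3.11.15 with numpy 2.4.6, scipy 1.17.1, pandas 2.3.3 and matplotlib 3.10.9.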

Additional observations from a re-analysis of the deposited data

How the results depend on the processing

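The count of called members, 36 (31 higher, 5 lower), moved most with scaling. It was 12 under TMM and under median of ratios over the listed genes (1 higher, 11 lower in each) and 18 with summed listed footprints (9 higher, 9 lower). The 6 members gained under TMM, all lower, were ybx1, Klf13, vdra, nr3c1, NR1D2 and Klf10. TMM lowered the estimate of every tested member. The members' median log2 fold change was 2.26, and 0.70, 0.71 and 1.33 under these scalings, 1.57 under the stricter filter and 1.35 with log2(FPKM + 1). The stricter filter left 26 members and called 22 (18 higher). Log2 FPKM called 8 lower with a pseudocount of 1 and 3 with 0.1, and adjustment over the listed genes alone called 11 lower. Leaving out a library gave 17 to 38 calls, 14 to 32 higher and 2 to 6 lower, and the median ranged from 1.97 to 2.34. Outside the main fit and the 3 scalings, the matching share of all listed genes called was not computed. The cause of these changes was not tested.

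The estimates turned sign in 5 entries, under TMM and median of ratios: CERS2 entry 2 (-0.08 and -0.06), znf277 (-0.12 and -0.11), hivep1 (-0.03 and -0.02), SALL1 (-0.12 and -0.11) and znf346 (-0.27 and -0.26). With the replicate number as a block, 40 members were called, the 36 and prdm1b, klf9, CERS2 entry 2 and Klf13. Same-numbered libraries did not deviate together over the listed genes (correlations -0.053, -0.0366 and 0.0109). The labels do not say whether the numbers pair libraries, and these correlations cannot exclude it. Without a filter 40 of 52 were called. Groups stayed apart in 50 members with depth-scaled counts. Depth limits the entries with few footprints, of which 7 could not be tested.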
